A study of Homo sapiens with 18 samples.

Results

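Genes whose annotated span reached 250 kb or more were examined in MDA-MB-231 cells, an established human breast cancer line of mesenchymal character, before and during exposure to doxorubicin. The span was taken from the first to the last annotated exon base in the deposited inducible count table. The genes were chosen by this span and by counts in the GFP libraries without doxorubicin. A gene was kept if it was autosomal, was counted at least 20 times in both GFP libraries without doxorubicin, and had no symbol of the LINC series. This left 621 genes of the 60603 in the table. Of 1434 autosomal genes that span 250 kb or more, 708 were below the count minimum and 105 had LINC symbols, of which 8 otherwise met the rule. The 621 genes comprised 579 protein-coding genes, 41 long noncoding RNAs and 1 gene of no assigned type, and 9 had an identifier only. They were set beside 12791 shorter autosomal genes that met the same count minimum.

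RNA was sequenced in 18 libraries. In the inducible system, 12 libraries came from 2 stable lines, each carrying a doxycycline-inducible lentiviral construct for GFP or for ZMYND8, a chromatin reader protein. Both lines received 250 ng/mL doxycycline, started 4 h before the drug, and were left without doxorubicin or exposed to 0.6 µM doxorubicin for 6 h or 48 h, with 2 libraries for each of the 6 conditions. In the transient system, 6 libraries came from cells transfected with empty vector and untreated, empty vector with doxorubicin for 48 h, or FLAG-tagged ZMYND8 with doxorubicin for 48 h, again 2 libraries each. Each construct is represented by 1 line, so line and construct cannot be told apart. How long the cells without doxorubicin had been on doxycycline is not given in the sources used here. Time on doxycycline and exposure to doxorubicin therefore cannot be told apart, neither in the comparisons with no doxorubicin nor in that of 48 h with 6 h. With 2 libraries against 2, an exact permutation test cannot give a two-sided p below 0.333, so all tests below are edgeR quasi-likelihood tests with Benjamini-Hochberg adjustment over all genes tested, and a gene is called lower or higher at an adjusted p of at most 0.05 at any fold. Levels are given as CPM (counts scaled to a fixed library size) after TMM scaling and changes as log2 values ± SE (n = 2 libraries in each condition).

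To make 1 transcript, RNA polymerase II must travel from the start of that transcript to its end, and in long genes most of the span is intron. The span used here covers all annotated exons of a gene, so a single transcript can be shorter than the span. Doxorubicin intercalates into DNA and traps topoisomerase II on it, and topoisomerases relieve the twist that builds up ahead of and behind a moving polymerase. Long human genes commonly encode adhesion molecules, receptors, cytoskeletal scaffolds, signalling enzymes and transcription factors, and the longest of them often lie in common fragile sites.

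The libraries of the inducible system held 18300628 to 23724398 counts. Those of the transient system held 5729294 to 5972396, except replicate 2 of empty vector with doxorubicin, which held 24713822 and differed from replicate 2 of the libraries labelled ZMYND8 plus doxorubicin by little more than counting noise (chi-square per degree of freedom 1.39, against 9.71 to 55.7 for the other transient pairs). ZMYND8 RNA stood at 829 CPM or more in the 6 ZMYND8 libraries and 93.8 to 209 CPM in the 6 GFP libraries. In the transient system it stood at 160 and 125 CPM in the libraries labelled ZMYND8 plus doxorubicin against 219 and 199 CPM in control, which goes against that label. Of the markers that define MDA-MB-231, VIM lay between 2110 and 4490 CPM in the inducible libraries and ESR1, PGR and KRT5 were near 0. CDH1, GATA3 and EPCAM, low in this line, lay between 0.58 and 44.5 CPM over all libraries, and CDH1 stood at 0.862 and 0.58 CPM without doxorubicin and 10.4 and 11 at 48 h in GFP cells. The levels of 4 markers of other cells (PTPRC, PECAM1, ALB and HBB) were summed, with ALB and HBB at or near 0. In ZMYND8 cells the sum was 1.12 to 1.71 CPM without doxorubicin and 3.86 to 4.04 CPM at 48 h. In GFP cells it was 5.58 to 6.33 CPM without doxorubicin, 2.41 to 3.04 at 6 h and 7.53 to 7.72 at 48 h. The part of these markers in the results was not tested. In bulk RNA, fewer cells of a type and less RNA per cell cannot be told apart.

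The long genes differed from the shorter ones in more than the span that chose them. Their median span was 363 kb against 27.4 kb, and their median longest intron was 99.5 kb against 7.95 kb. Median summed exon length was 9.6 kb against 4.76 kb, so that exons made up a median 2.41% of the span against 18.1%. Median GC content of the whole span, introns included, was 39.5% against 45.5%. The polyadenylation hexamer AATAAA occurred 0.968 times per kb of span against 0.675. Median level was 4.12 against 4.95 on the log2 CPM scale. Long genes made up 12% of the counted genes on chromosome 18 and 10.6% on chromosome 13 but 0.194% on chromosome 19, where 2 of 1030 qualified. Exons of 84 long genes overlapped those of another gene on the same strand, where reads shared by both are not assigned. Among the genes named here these are PDE11A, SORBS2, RIMS2, NRG1, RPS6KA2, SBF2, PRKCH, RBMS3, TBC1D5 and RORA. Exons of 280 long genes overlapped those of a gene on the opposite strand. Reads shared there are also not assigned if the counting ignored strand, which was not checked.

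RefSeq promoters (250 bases before to 50 after the start, GRCh38.p14) were matched by symbol for 511 of the 621 genes. On either strand, 7.44% of them held TATAAA, compared with 12% of all 27305 promoters and 5.33% of 9991 promoters of genes with the same count minimum. For GGGCGG, the GC box, the shares were 61.8%, 44.6% and 70.8%. For CCAAT they were 30.5%, 35.7% and 36.1%, and for the AP-1 letters TGANTCA 5.28%, 7.76% and 4.7%. Median CpG count in the window was 26, 14 and 27. A match is a description of letters and not a binding site. The promoters of 4 genes, chosen after their values were seen, are printed to show the starts of genes that moved in different ways: TP63 and MAML3 were lower at 6 h, EDIL3 was lower at 48 h and LAMA2 was higher at 48 h. Capitals mark matches to the 4 motifs above on either strand.
TP63: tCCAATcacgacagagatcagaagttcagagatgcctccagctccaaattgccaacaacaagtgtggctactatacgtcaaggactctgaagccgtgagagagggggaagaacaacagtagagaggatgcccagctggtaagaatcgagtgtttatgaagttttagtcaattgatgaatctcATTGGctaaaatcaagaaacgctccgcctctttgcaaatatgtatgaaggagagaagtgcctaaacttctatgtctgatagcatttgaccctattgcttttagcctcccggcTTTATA
MAML3: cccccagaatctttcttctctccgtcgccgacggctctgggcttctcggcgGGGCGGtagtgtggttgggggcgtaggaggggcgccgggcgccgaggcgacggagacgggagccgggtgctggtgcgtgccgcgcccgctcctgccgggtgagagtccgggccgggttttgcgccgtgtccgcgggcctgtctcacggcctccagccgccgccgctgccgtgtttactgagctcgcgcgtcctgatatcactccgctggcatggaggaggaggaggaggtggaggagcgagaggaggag
EDIL3: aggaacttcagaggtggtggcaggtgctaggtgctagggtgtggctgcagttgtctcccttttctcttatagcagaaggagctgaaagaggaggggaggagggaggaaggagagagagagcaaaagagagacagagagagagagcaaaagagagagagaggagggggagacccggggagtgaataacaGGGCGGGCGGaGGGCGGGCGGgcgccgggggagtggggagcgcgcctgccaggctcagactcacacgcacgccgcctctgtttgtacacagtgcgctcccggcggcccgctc
LAMA2: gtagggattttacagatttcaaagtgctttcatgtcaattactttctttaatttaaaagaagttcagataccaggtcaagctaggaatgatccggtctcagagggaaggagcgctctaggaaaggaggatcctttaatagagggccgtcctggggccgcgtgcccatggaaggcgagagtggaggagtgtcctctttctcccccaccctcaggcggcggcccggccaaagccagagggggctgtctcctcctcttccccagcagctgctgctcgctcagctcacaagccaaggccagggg
The TP63 window (chr3:189631139-189631438, plus strand) held 1 TATAAA and 2 CCAAT, all but 1 CCAAT in reverse, with 7 CpG. The MAML3 window (chr4:140154135-140154434, minus strand) held 1 GC box and 37 CpG. The EDIL3 window (chr5:84384831-84385130, minus strand) held 4 GC boxes in 2 overlapping runs and 16 CpG. The LAMA2 window (chr6:128882888-128883187, plus strand) held none of the 4 motifs and 10 CpG. The RefSeq start lay at the gene start of the files for TP63, MAML3 and EDIL3 and 3 bases before it for LAMA2.

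The share of all counts that fell in the 621 genes was lower with each longer exposure. In ZMYND8 cells they took 2.72% and 2.63% of counts without doxorubicin, 2.19% and 2.21% at 6 h, and 1.71% and 1.75% at 48 h. In GFP cells, whose untreated libraries chose the genes, the shares were 2.93% and 2.93%, then 2.28% and 2.31%, then 1.82% and 1.86%. The 3 conditions did not overlap in either line. In the transient system control libraries overlapped the doxorubicin libraries, at 2.2% and 2.72% against 2.3% and 1.93%. No single gene carried the share: the leading gene, APP or at 48 h CTNNA1, took 2.76% to 4.75% of it in the inducible libraries.

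**Figure D1:**
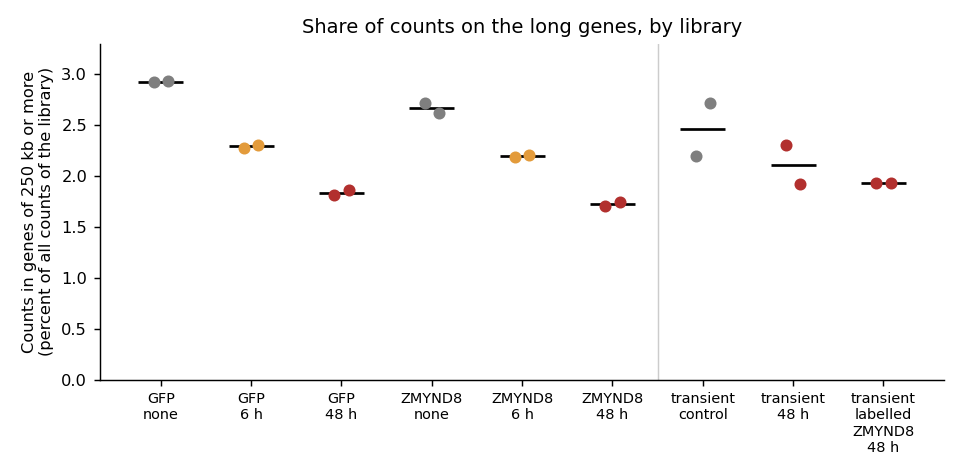
Percent of all counts assigned to the 621 genes spanning 250 kb or more (y axis) in each library (points), by system and condition (x axis). In both inducible lines the 2 libraries of each condition sit together and the share steps down from 2.63 to 2.93% without doxorubicin to 1.71 to 1.86% at 48 h, while the transient control and doxorubicin libraries overlap.

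At 6 h of doxorubicin in ZMYND8 cells, long genes were mostly lower. Their median log2 change was −0.27, compared with −0.01 over all 18801 genes tested and 0.02 over the shorter genes. The test called 292 of the 621 lower (47%, where 19% of all genes tested were called lower) and 51 higher (8.21%, where 21.8% of all were called higher). The shorter genes had 22.8% lower and 29.3% higher. In 477 of the long genes (76.8%) the fitted change was below 0. Large changes were few: 37 were called lower at a log2 change of −1 or beyond (3.56% of all genes tested passed this) and 3 were called higher at 1 or beyond (1.21% of all). In GFP cells the median was −0.41, with 99 genes at −1 or lower (9.57% of all genes) and 10 at 1 or higher (5.23% of all), given without a test because those untreated libraries chose the genes. Among the shorter genes, 5.73% and 2.35% passed these limits.

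At 48 h the falls were more numerous and larger. The median log2 change in ZMYND8 cells was −0.65, against 0.05 over all genes tested and −0.07 over the shorter genes. The test called 407 lower (65.5%, against 30.8% of all genes tested and 39.1% of shorter genes) and 72 higher (11.6%, against 31.6% and 29.9%). Of these, 197 were lower by a log2 change of 1 or beyond (6.5% of all genes passed this) and 32 were higher by as much (13.6% of all). Both comparisons in ZMYND8 cells share the untreated libraries. In GFP cells the median was −0.71, with 221 genes at −1 or lower (9.05% of all genes) and 17 at 1 or higher (16.1% of all), again without a test. Among the shorter genes, 8.62% and 5.57% passed these limits. The share of all genes also includes genes below the count minimum. With total counts in place of TMM factors the median of all genes at 48 h in ZMYND8 cells shifted to 0.25 and that of the long genes to −0.45, so the gap between them was −0.70 under either scaling.

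**Figure D2:**
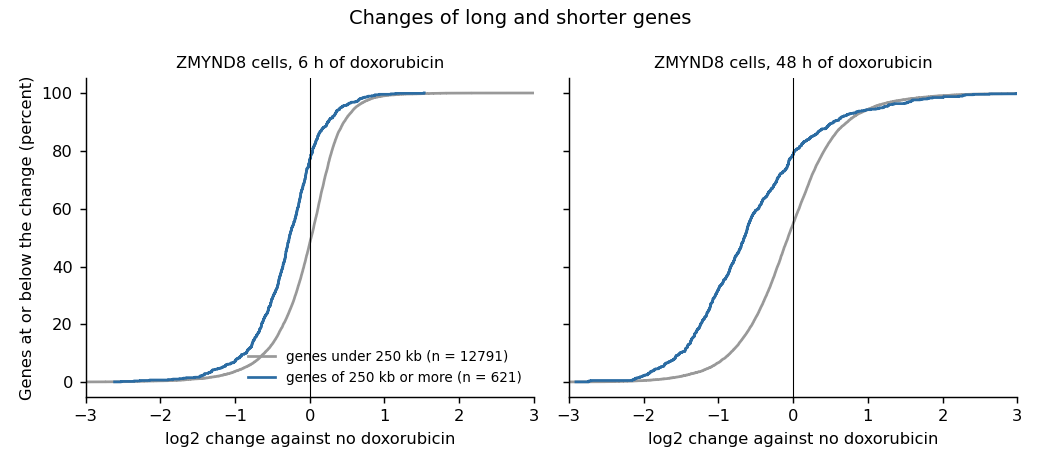
Percent of genes at or below a given log2 change (y axis) against the change from no doxorubicin (x axis) in ZMYND8 cells at 6 h and 48 h, for the 621 long genes and the 12791 shorter genes with the same count minimum. The curve of the long genes lies to the left of the other through its middle range at 6 h (medians −0.27 and 0.02) and farther to the left at 48 h (medians −0.65 and −0.07).

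The change was graded with span beyond the 250 kb limit, on both sides of it. At 6 h in ZMYND8 cells the median log2 change was 0.05 in genes under 10 kb, −0.10 in genes of 100 to 250 kb, −0.24 in 468 genes of 250 to 500 kb, −0.34 in 135 genes of 500 kb to 1 Mb and −0.39 in 18 genes of 1 Mb or more. At 48 h the medians of these classes were 0.02, −0.41, −0.63, −0.84 and −0.76, so the longest class did not lie below the one before it. In GFP cells, without a test, they were −0.04, −0.19, −0.37, −0.55 and −0.63 at 6 h and −0.10, −0.37, −0.66, −0.97 and −1.17 at 48 h. Within the 621 genes the rank correlation with span was weak (Spearman −0.14 at 6 h and −0.10 at 48 h across 621 genes, which share libraries and are not replicates). Level was more closely related to the change at 48 h (−0.42) and summed exon length to that at 6 h (−0.22).

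**Figure D3:**
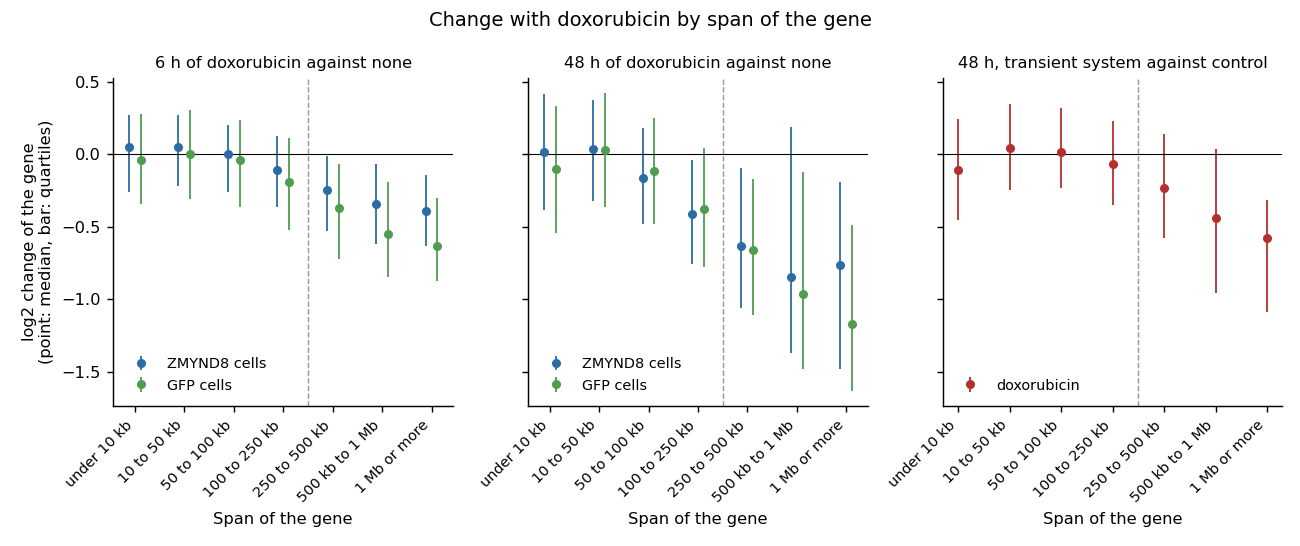
Median log2 change (points) with quartiles (bars) on the y axis by class of gene span (x axis) at 6 h and 48 h of doxorubicin in ZMYND8 and GFP cells and at 48 h in the transient system, with a dashed line at 250 kb. Medians step down from genes of 10 to 50 kb to genes of 500 kb to 1 Mb in every series, and in ZMYND8 cells at 48 h the 18 genes of 1 Mb or more (−0.76) do not lie below the class before them (−0.84).

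Because long genes also have more exon sequence, lower GC content and lower levels, all counted genes were split into 3 equal groups by each property and by the percent of the span that is exon. In the upper group of exon length (over 6.47 kb), 487 long genes had a median of −0.32 at 6 h in ZMYND8 cells, and 1587 genes under 50 kb had 0.02. In the lower group (under 3.6 kb), 34 long genes were at −0.05 at 6 h, near the 0.06 of genes under 50 kb, but at −0.74 against 0.05 at 48 h. By level, 115 long genes in the upper group were at −0.17 and −0.87 at 6 h and 48 h, where genes under 50 kb were at 0.16 and −0.05. The 279 long genes in the lower group of level were at −0.32 and −0.23, against −0.15 and 0.10. The 452 long genes in the lower group of GC content were at −0.24 and −0.68, against 0.11 and 0.06. In every group of the 4 properties that held long genes, their median lay below that of genes under 50 kb at both exposures. By percent exon, 618 long genes fell in the lower group and 3 in the middle one. That split therefore could not separate percent exon from span. The upper group of GC content held 15 long genes. The 299 long genes with no exon overlap on either strand gave medians of −0.26 at 6 h and −0.67 at 48 h, with 46.2% and 69.2% called lower.

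Transcription and chromatin regulators formed a list with 55 long genes, of which 38 were called lower, 5 higher and 12 neither at 6 h in ZMYND8 cells, with a median of −0.33. Of all long genes, 47% were called lower and 8.21% higher, and of all genes tested 19% and 21.8%. Whether the list differs from the other long genes was not tested. The other 47 measured genes of the list, which did not meet the rule, had 27 lower, 3 higher and 17 neither, with a median of −0.36. TP63, a transcription factor of the p53 family that maintains epithelial progenitors (ENSG00000073282.13, chromosome 3, 189631389 to 189897276), stood at 2.9 and 3.54 CPM without doxorubicin, 0.591 and 0.525 at 6 h and 2.44 and 2.38 at 48 h in ZMYND8 cells. The 6 h libraries lay below all others, and 48 h had come back to near the untreated level (−2.52 ± 0.34 at 6 h, adjusted p = 7.8e-07, and −0.43 ± 0.263 at 48 h, adjusted p = 0.16). In GFP cells its values were 2.28 and 1.48, then 0.105 and 0.321, then 3.86 and 2.94 CPM, with 48 h above the untreated libraries. MAML3, a Mastermind coactivator of Notch (ENSG00000196782.12, chromosome 4, 139716753 to 140154184), stood at 6.03 and 4.25, then 1.68 and 1.16, then 2.2 and 1.87 CPM in ZMYND8 cells. Its 6 h and 48 h libraries all lay below the untreated ones (−1.83 ± 0.235, adjusted p = 3.5e-07, and −1.32 ± 0.212, adjusted p = 5.5e-06). BACH2, a leucine zipper repressor, went from 7.15 and 7.79 to 2.56 and 3.31 at 6 h (−1.35 ± 0.174, adjusted p = 3.9e-07) and stood at 5.16 and 4.64 CPM at 48 h. TCF4, a basic helix-loop-helix factor, went from 2.68 and 3.63 to 0.739 and 1.84 CPM (−1.31 ± 0.327, adjusted p = 0.0018). Its call was lost without replicate 1 of the 6 h libraries (−0.79), and the change was −2.09 without replicate 2.

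The list of kinases, phosphatases and second-messenger enzymes held 47 long genes, of which 26 were called lower, 3 higher and 18 neither at 6 h, with a median of −0.39. Of its other 68 measured genes, 19 were called lower and 11 higher (median −0.11). The shares lower and higher were 47% and 8.21% over all long genes and 19% and 21.8% over all genes tested. Whether this list differs from the other long genes was not tested. Those named are phosphodiesterases, which break down cyclic nucleotides, and a phospholipase. PDE7B stood at 19.4 and 20.4 CPM without doxorubicin, 7.59 and 7.41 at 6 h and 5.86 and 5.15 at 48 h in ZMYND8 cells (−1.41 ± 0.115, adjusted p = 1.4e-10, at 6 h). In GFP cells its level was lowest at 6 h (29.6 and 28.6, then 3.78 and 5.19, then 8.43 and 8.37 CPM), and its change from 6 h to 48 h differed between the lines (−1.35 ± 0.195 in ZMYND8 minus GFP cells, adjusted p = 6.4e-06). PDE4B, which acts on cyclic AMP, went from 5.75 and 6.04 to 2.61 and 2.05 CPM at 6 h (−1.34 ± 0.204, adjusted p = 5.2e-06) and was at 5.04 and 5.11 at 48 h. PLCB1, a phospholipase C, went from 1 and 1.53 to 0.591 and 0.525 CPM (−1.2 ± 0.392, adjusted p = 0.016). That call was lost when any of 3 of its 4 libraries was left out, with −0.84 without replicate 2 of the untreated libraries. PDE11A was fitted lowest of all, but its 6 h libraries, at 0.0986 and 0.158 CPM, were at or under 3 counts each, so no fold change is given. CHRM3, the M3 muscarinic receptor, belongs to no list and was at 15.5 and 11.4 without doxorubicin, 4.04 and 3.94 at 6 h and 3.62 and 3.49 CPM at 48 h (−1.74 ± 0.169, adjusted p = 3e-09, at 6 h).

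Cytoskeletal, adhesion and vesicle transport genes formed the largest list. Of its 87 long genes, 55 were called lower, 7 higher and 25 neither at 6 h, with a median of −0.34. Of its other 93 measured genes, 36 were called lower and 12 higher (median −0.13). Over all long genes the shares lower and higher were 47% and 8.21%, and over all genes tested 19% and 21.8%. A difference of this list from the other long genes was not tested. SORBS2, an adaptor of actin stress fibres, stood at 17.3 and 15.4 CPM without doxorubicin, 4.09 and 4.67 at 6 h and 3.78 and 4.68 at 48 h in ZMYND8 cells (−1.89 ± 0.129, adjusted p = 4e-12, at 6 h). The 6 h and 48 h libraries overlapped each other and lay below the untreated ones. ANK3, an ankyrin that anchors membrane proteins to spectrin, went from 5.36 and 4.86 to 2.32 and 2.21 CPM at 6 h (−1.17 ± 0.196, adjusted p = 1.9e-05) and was at 6.87 and 6.08 at 48 h. ARHGAP24, a GTPase-activating protein for Rac, went from 1.95 and 1.97 to 0.789 and 0.946 (−1.18 ± 0.355, adjusted p = 0.0088), and without replicate 1 of the 6 h libraries the change of −1.05 was no longer called. FILIP1L, a relative of a filamin-binding protein, stood at 23.6 and 27.1, then 8.87 and 10.1, then 10.7 and 10.2 CPM (−1.43 ± 0.104, adjusted p = 1.4e-11, at 6 h). In GFP cells it partly came back, from 15.5 and 13.4 at 6 h to 31.4 and 28.6 CPM at 48 h, against 46.3 and 46.4 untreated.

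The other genes with the largest falls at 6 h belong to no list. CCNG2, an atypical cyclin, stood at 53.1 and 55.4 CPM without doxorubicin, 17.9 and 15.6 at 6 h and 32.4 and 31.5 at 48 h (−1.69 ± 0.0724, adjusted p = 5.2e-16, at 6 h). MCTP2, a membrane protein with calcium-binding C2 domains, stood at 19.9 and 16.5, then 7.44 and 6.2, then 6.83 and 7.15 CPM (−1.41 ± 0.163, adjusted p = 6.4e-08, at 6 h). Of the 411 long genes in no list, 165 were called lower and 35 higher at 6 h, with a median of −0.22. All long genes had 47% lower and 8.21% higher, and all genes tested 19% and 21.8%.

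**Figure D4:**
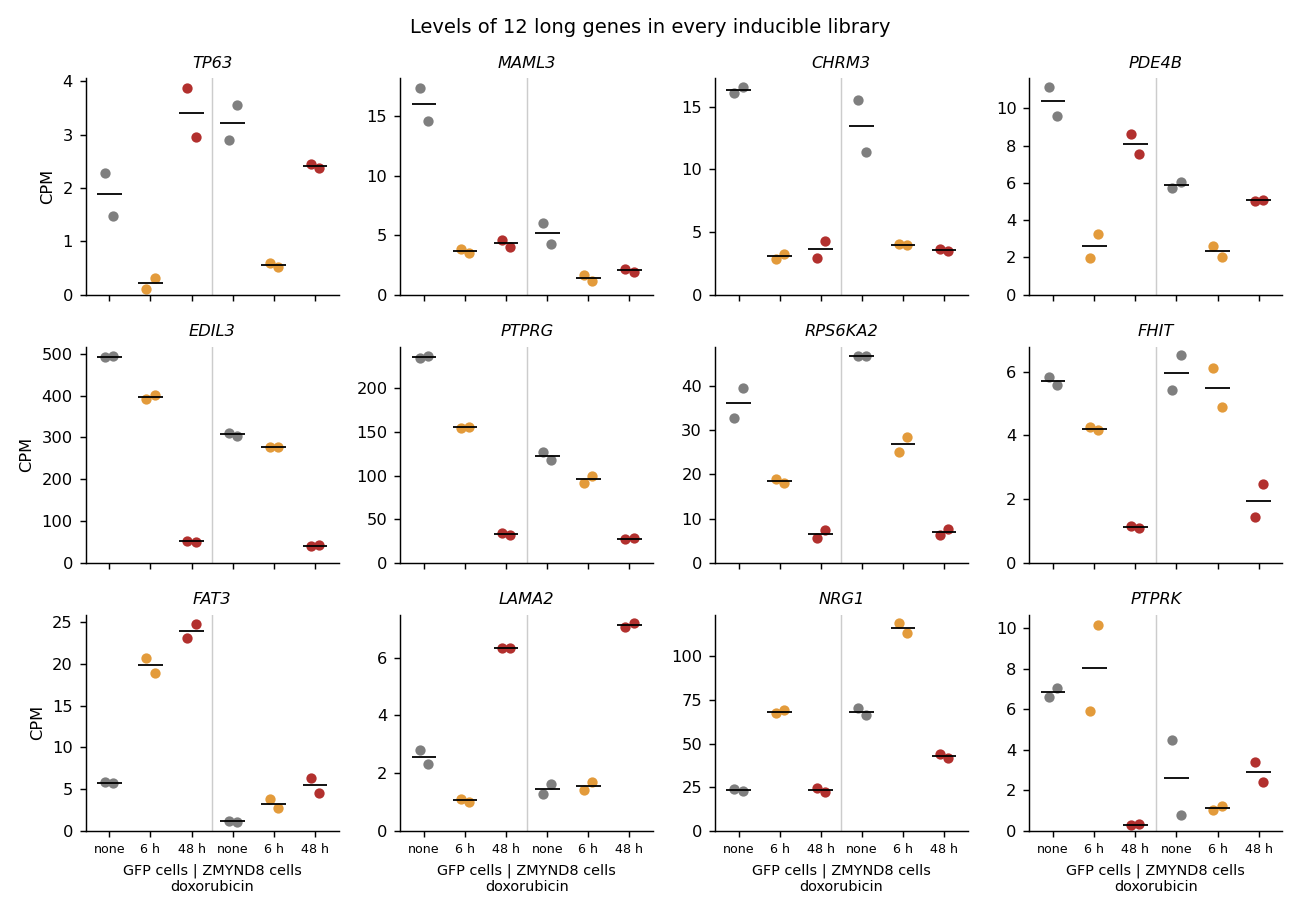
Level in CPM (y axis, linear) of 12 long genes in each inducible library (points, with a bar at the mean of the 2 libraries), by exposure (x axis) in GFP cells on the left and ZMYND8 cells on the right of each panel. TP63, MAML3 and PDE4B have their lowest libraries at 6 h, EDIL3, PTPRG and RPS6KA2 at 48 h, and LAMA2 its highest libraries at 48 h, in both lines.

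A minority rose at 6 h. FAT3, an atypical cadherin, had the largest rise, from 1.17 and 1.09 CPM without doxorubicin to 3.79 and 2.73 at 6 h and 6.3 and 4.59 at 48 h in ZMYND8 cells (1.53 ± 0.245, adjusted p = 9.8e-06, at 6 h). RIMS2, a scaffold of the vesicle release zone, went from 10.7 and 13.2 to 27.8 and 25.5 CPM (1.15 ± 0.101, adjusted p = 4.9e-10). NHSL1, an actin regulator, went from 4.41 and 5.51 to 9.96 and 11.3 CPM (1.08 ± 0.141, adjusted p = 4.6e-07). Libraries of the 2 conditions did not overlap for these 3 genes, which the rule for naming them required. NRG1, a ligand of ERBB receptors, was at 70.2 and 66.5 untreated, 119 and 114 at 6 h and 44 and 41.6 CPM at 48 h, so that it rose at 6 h (0.77 ± 0.0533, adjusted p = 5.9e-12) and fell below the untreated level at 48 h (−0.67 ± 0.0577, adjusted p = 8.6e-11). In GFP cells it was at 23.7 and 22.6, then 67.6 and 69, then 24.7 and 22 CPM. SLIT2, a guidance ligand of ROBO receptors, went from 27.5 and 25.8 to 41.2 and 44.9 CPM at 6 h (0.7 ± 0.0739, adjusted p = 1.5e-08) and was at 27.2 and 25.4 at 48 h.

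The remaining named rises at 6 h ranged from 0.72 to 0.93 on the log2 scale. FAM107B, a protein of little known function, had the highest level of them, from 138 and 146 to 254 and 253 CPM (0.83 ± 0.0408, adjusted p = 6.7e-15). ENTPD1-AS1, a noncoding RNA antisense to ENTPD1, went from 12.5 and 11.9 to 21.7 and 22.9 CPM (0.87 ± 0.101, adjusted p = 7.3e-08). DCLK1, a microtubule-binding kinase, went from 4.69 and 4.2 to 9.81 and 6.25 CPM (0.87 ± 0.162, adjusted p = 7.8e-05), and without replicate 1 of the 6 h libraries the change was 0.50. BMPER, a secreted modulator of BMP signals, went from 2.4 and 3.02 to 4.83 and 4.15 CPM (0.72, adjusted p = 0.0061), a call lost without that library (0.60) or without untreated replicate 1 (0.57). ANO2, a calcium-activated chloride channel, went from 0.558 and 0.438 to 1.08 and 0.788 CPM, and its call (0.93, adjusted p = 0.044) was lost when any of 5 libraries was left out, down to 0.68 without replicate 1 of the 6 h libraries.

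Most of the largest falls at 48 h were in genes with far smaller changes at 6 h. EDIL3, a secreted protein that binds integrins (ENSG00000164176.13, chromosome 5, 83940554 to 84384880), stood at 310 and 304 CPM without doxorubicin, 278 and 276 at 6 h and 40.7 and 41.4 at 48 h in ZMYND8 cells. In GFP cells it stood at 491 and 494, then 393 and 402, then 51.8 and 50.1 CPM. The 48 h libraries lay far below all others in both lines (−2.9 ± 0.044, adjusted p = 2.8e-26, at 48 h in ZMYND8 cells, against −0.15 ± 0.0376, adjusted p = 0.0021, at 6 h). SORCS2, a receptor of the sortilin family, stood at 45.9 and 49.2, then 35.9 and 38.3, then 6.99 and 7.36 CPM in ZMYND8 cells (−2.73 ± 0.0821, adjusted p = 2.6e-20, at 48 h). PTPRG, a receptor tyrosine phosphatase, stood at 128 and 118, then 91.9 and 99.96, then 26.8 and 28.4 CPM (−2.15 ± 0.0566, adjusted p = 1.6e-21). GPC6, a glypican of the cell surface that spans 1181 kb, stood at 13.5 and 12.6, then 9.31 and 8.77, then 1.91 and 2.08 CPM (−2.7 ± 0.167, adjusted p = 9.7e-14). Each of these genes was lower in the 48 h libraries than in every untreated and 6 h library of the line. The rule for naming them required this against the untreated libraries of ZMYND8 cells.

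The same order was seen in genes for other functions. RPS6KA2, a kinase of the RSK family, stood at 46.7 and 46.9 CPM untreated, 25.1 and 28.4 at 6 h and 6.34 and 7.74 at 48 h in ZMYND8 cells (−2.73 ± 0.111, adjusted p = 1.4e-17, at 48 h). SBF2, a protein related to the myotubularin phosphatases, stood at 90.1 and 90.9, then 58.1 and 55.1, then 21.4 and 19.6 CPM (−2.14 ± 0.0629, adjusted p = 1.7e-20). CDH4, a cadherin, and NEGR1, a neuronal adhesion molecule, were at −2.12 ± 0.154 (adjusted p = 2.9e-12) and −2.12 ± 0.223 (adjusted p = 4.4e-09). ANK2, an ankyrin, and FBXL17, a substrate adaptor of a ubiquitin ligase, were at −2.11 ± 0.134 (adjusted p = 1.8e-13) and −2.08 ± 0.112 (adjusted p = 5.4e-15). All 6 were also below 0 at 48 h in GFP cells, by −1.17 for NEGR1 to −2.47 for RPS6KA2, given without a test.

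Among the 72 genes called higher at 48 h, 8 of the 10 named ones stood under 4 CPM without doxorubicin in ZMYND8 cells. LAMA2, the laminin alpha 2 chain of basement membranes (ENSG00000196569.12, chromosome 6, 128883141 to 129516569), stood at 1.28 and 1.62 CPM without doxorubicin, 1.43 and 1.68 at 6 h and 7.08 and 7.19 at 48 h in ZMYND8 cells (2.28 ± 0.209, adjusted p = 3.1e-10). In GFP cells it stood at 2.79 and 2.32, then 1.1 and 1.02, then 6.35 and 6.35 CPM. The 48 h libraries were above all others in both lines. RIMS1, a vesicle release scaffold, went from 0.391 and 0.35 to 2.6 and 2 CPM in ZMYND8 cells (2.63 ± 0.349, adjusted p = 2.8e-07), whereas in GFP cells it was at 4.51 and 4.91 untreated and 2.88 and 3.95 at 48 h. CFAP54 and DNAH12 encode parts of motile cilia, and were at 23.2 and 25.2 and at 3.21 and 2.94 CPM at 48 h, from 5.92 and 6.08 and from 0.447 and 0.832 untreated. PRKCH, a protein kinase C, went from 2.29 and 3.02 to 11.6 and 10.2 CPM (2.01 ± 0.157, adjusted p = 1.2e-11).

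FAT3 and ANO2, already called higher at 6 h, stood 2.27 ± 0.216 (adjusted p = 6.9e-10) and 2.41 ± 0.293 (adjusted p = 6e-08) above the untreated level at 48 h. PDE1C, a phosphodiesterase, went from 12 and 11 to 34.4 and 34.4 CPM (1.58 ± 0.0868, adjusted p = 8.1e-15). NYAP2, an adaptor of phosphoinositide signalling in neurons, and NRCAM, a neural adhesion molecule, were at 1.58 ± 0.183 (adjusted p = 2.6e-08) and 1.53 ± 0.254 (adjusted p = 8.5e-06). Untreated and 48 h libraries did not overlap for PDE1C, NYAP2 and NRCAM, which the rule for naming them required.

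The 10 longest genes, which span 1216 to 1698 kb, did not change alike. NRXN3, a synaptic adhesion protein and the longest, was at 0.838 and 1.66 CPM untreated, 0.789 and 0.84 at 6 h and 1.26 and 0.978 at 48 h in ZMYND8 cells, and neither change was called (adjusted p = 0.22 and 0.68). PDE4D, a phosphodiesterase, stood at 80.1 and 74.6, then 41.9 and 40.1, then 41.9 and 42.8 CPM, below the untreated libraries at both exposures (−0.91 ± 0.0671, adjusted p = 1.8e-11, and −0.87 ± 0.0653, adjusted p = 6.1e-12). FHIT, which lies across the fragile site FRA3B, was at 5.42 and 6.52, then 6.11 and 4.88, then 1.42 and 2.47 CPM, and was called lower at 48 h and not at 6 h (−0.12, adjusted p = 0.67, and −1.63 ± 0.22, adjusted p = 3.6e-07). TBC1D5, a regulator of Rab GTPases, stood at 77 and 74.7, then 61.1 and 58.9, then 25.9 and 24.7 CPM. RBMS3, an RNA-binding protein, stood at 25.9 and 26.4, then 22.4 and 23.2, then 9.6 and 8.42 CPM. Both were called lower at 48 h (−1.58 ± 0.0719, adjusted p = 1.5e-16, and −1.54 ± 0.0954, adjusted p = 1.1e-13).

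KAZN, a protein of cell junctions, was at 39.8 and 40.9, then 25.4 and 28.7, then 35.7 and 35.9 CPM, called lower at 6 h (−0.58 ± 0.0814, adjusted p = 1.5e-06). MAGI2, a junction scaffold, was called at neither exposure (adjusted p = 0.38 and 0.87). RUNX1, a transcription factor of blood development, was at 146 and 145, then 155 and 165, then 130 and 125 CPM. Its changes were small (0.14 at 6 h, adjusted p = 0.012, and −0.19 at 48 h, adjusted p = 0.00038). The first was not called without untreated or 6 h replicate 2 (0.13 and 0.09), and the second turned to 0.01 with total counts in place of TMM factors. NRG1, also among the 10, is described above. Of the 18 genes of 1 Mb or more, 7 were called lower and 2 higher at 6 h, and 12 lower and 0 higher at 48 h in ZMYND8 cells (edgeR, with 13 lower and 0 higher at an unadjusted p of at most 0.05, and 12 lower and 0 higher with DESeq2). The shares lower were 38.9% and 66.7%, against 47% and 65.5% of all long genes and 19% and 30.8% of all genes tested. Over 18 genes these counts are not a result about the longest class.

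Of 21 listed genes known to lie in common fragile sites, 9 were among the long genes. In ZMYND8 cells 4 of these 9 were called lower at 6 h and 7 at 48 h, none higher, with medians of −0.31 and −1.52 (edgeR, adjusted p at most 0.05). Of all long genes 47% and 65.5% were called lower at these exposures, and of all genes tested 19% and 30.8%, so over 9 genes these counts are not a result about fragile sites. The count higher was also 0 at an unadjusted p of at most 0.05 and with DESeq2, at both exposures. The other 8 measured genes of the list, which did not meet the rule, had 0 lower and 0 higher at 6 h (median −0.05). At 48 h they had 0 lower and 5 higher (median 2.37). In the transient system 0 of these 8 were tested, because genes with too few counts were removed there. Genes with few counts have little room to fall, so these counts are not set against those of the 9. NBEA, a scaffold for membrane traffic, stood at 8.94 and 10.1 CPM without doxorubicin, 3.89 and 4.83 at 6 h and 2.93 and 2.89 at 48 h (−1.71 ± 0.186, adjusted p = 8.5e-09, at 48 h). RORA, a nuclear receptor, stood at 11.4 and 12.3, then 7 and 7.62, then 8.58 and 7.32 CPM (−0.58 ± 0.129, adjusted p = 0.00034).

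By the other lists, the counts at 48 h in ZMYND8 cells were 40 lower and 5 higher of 55 transcription and chromatin regulators (median −0.82), 33 lower and 5 higher of 47 signalling enzymes (−0.88), 60 lower and 8 higher of 87 cytoskeletal, adhesion and transport genes (−0.75), and 10 lower and 4 higher of 15 extracellular matrix genes (−0.98). Of all long genes 65.5% were lower and 11.6% higher, and of all genes tested 30.8% and 31.6%. The lists lie near the share of all long genes, so their counts are not a result about these lists. Of the 15 matrix genes, 7 were lower and 1 higher at 6 h (−0.27). This is near the 47% and 8.21% of all long genes (19% and 21.8% of all genes tested) and is not a result about the list. Among them, ADAM22, a catalytically inactive ADAM protein, went from 8.82 and 8.53 to 4.83 and 4.04 CPM at 6 h (−0.96 ± 0.165, adjusted p = 2.5e-05). CSGALNACT1, an enzyme of chondroitin sulfate synthesis, went from 4.63 and 4.99 to 2.71 and 3.73 at 6 h and 6.63 and 7.1 CPM at 48 h, with changes of −0.59 and 0.51 (adjusted p = 0.018 and 0.013). The first was lost without replicate 1 of the 6 h libraries (−0.37) or untreated replicate 2 (−0.53), and the second without untreated replicate 1 (0.43) or 48 h replicate 2 (0.45). MMP16, a membrane-bound metalloproteinase, was under 1 CPM in all 6 ZMYND8 libraries and was not called (adjusted p = 0.39). The 411 genes in no list had 260 lower and 50 higher at 48 h, with a median of −0.61, so the falls were not limited to listed genes.

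**Figure D5:**
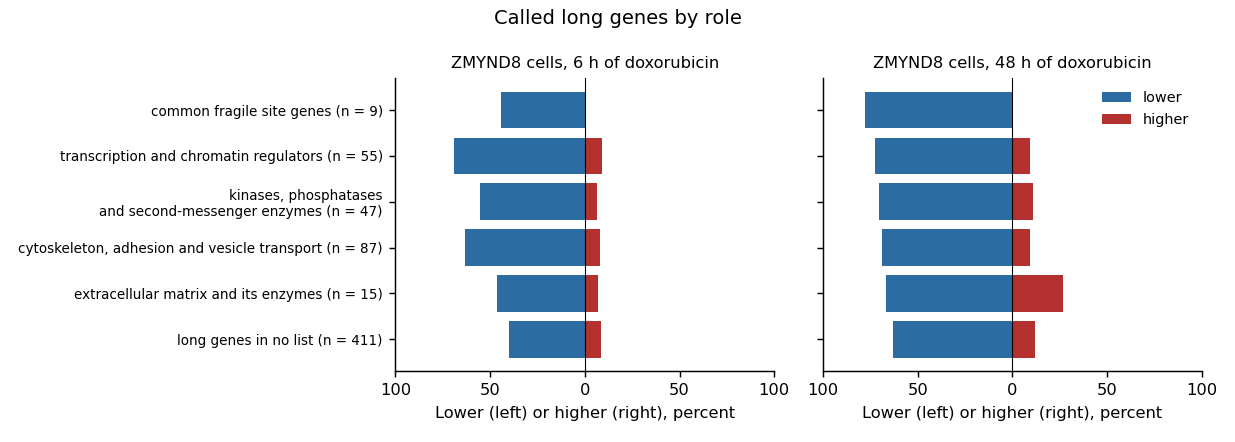
Percent of the long genes in each role list (y axis, with the number of genes) that were called lower, to the left of 0, or higher, to the right (x axis), in ZMYND8 cells at 6 h and 48 h. In every list, and in the 411 genes of no list, genes called lower outnumber those called higher at both exposures.

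The proteins that carry the polymerase along a gene were mostly not long genes themselves. Of 41 listed elongation factors, topoisomerases and polymerase subunits, MLLT3, a member of the super elongation complex family, met the rule and was called lower at 6 h and 48 h (−0.53 and −0.90). Of the other 40, 6 were called lower and 21 higher at 6 h (median 0.16), and 13 lower and 14 higher at 48 h (median 0.08). Of all genes tested, 19% were lower and 21.8% higher at 6 h, and 30.8% and 31.6% at 48 h. The counts at 48 h lie near these shares and are not a result about the list. POLR2A, the largest polymerase II subunit, was at 1.37 and 1.74, and TOP2B, a target of doxorubicin, at −0.27 and −1.03. TOP2A, the other listed topoisomerase II, was at −0.33 at 6 h and was not called at 48 h. TOP1 was at 0.42 and −0.25. These are changes in RNA and not in protein.

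Between 6 h and 48 h the long genes moved in both directions. In GFP cells, 318 were called lower (51.2%, against 30.2% of all genes tested) and 149 higher (24%, against 32% of all), with a median of −0.26 against 0.04 over all genes. In ZMYND8 cells, 338 were called lower (54.4%, against 31.3%) and 115 higher (18.5%, against 30.2%), with a median of −0.37 against 0.04. These values depended on the scaling. With total counts, the all-gene medians shifted to 0.28 and 0.33, the long-gene medians to −0.01 and −0.09, and the splits to 241 lower and 206 higher in GFP cells and 260 lower and 188 higher in ZMYND8 cells. The gap between long genes and all genes was −0.29 and −0.41 under either scaling. With TMM factors the shorter genes had 39.1% lower and 28.9% higher in GFP cells, with a median of −0.07. In ZMYND8 cells they had 41.1% lower and 26% higher, with a median of −0.09. The long-gene medians thus lay closer to those of the shorter genes than to those of all genes.

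The comparisons of 48 h with 6 h in the 2 lines share no library. Of the 318 genes lower in GFP cells, 279 were called lower and 7 higher in ZMYND8 cells. Of the 149 higher in GFP cells, 82 were called higher and 11 lower in ZMYND8 cells. Those 149 genes had a median of −0.55 at 6 h against untreated in ZMYND8 cells, where 83 of them were called lower and 3 higher. By contrast, of the 51 genes called higher at 6 h in ZMYND8 cells, 37 were called lower and 3 higher from 6 h to 48 h in GFP cells. Of the 292 called lower at 6 h, 145 were called lower and 83 higher. From 6 h to 48 h, 51.2% of all long genes were lower and 24% higher in GFP cells, and 54.4% and 18.5% in ZMYND8 cells. These overlaps were not counted over all genes or over the shorter genes. They describe these genes and are not a result about long genes.

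The largest rises shared by both lines from 6 h to 48 h were in LAMA2 (2.58 ± 0.227 in GFP and 2.2 ± 0.208 in ZMYND8 cells), TP63 (3.96 ± 0.407 and 2.1 ± 0.347), PRKCH (2 ± 0.141 and 1.86 ± 0.155), CFAP54 (1.77 ± 0.199 and 2.08 ± 0.123) and DNAH12 (1.67 ± 0.276 and 2.73 ± 0.35). The largest shared falls were in EDIL3 (−2.96 ± 0.043 and −2.76 ± 0.0441), GPC6 (−2.05 ± 0.219 and −2.18 ± 0.173), SORCS2 (−1.88 ± 0.0692 and −2.37 ± 0.0852), FBXL17 (−1.8 ± 0.119 and −1.84 ± 0.114) and PTPRG (−2.23 ± 0.0547 and −1.8 ± 0.0579). The adjusted p ranged from 1.9e-26 (EDIL3 in GFP cells) to 8.7e-06 (TP63 in ZMYND8 cells). For all 10 genes the 48 h libraries lay apart from the 6 h libraries in both lines. TP63 was near the floor of counts at 6 h in GFP cells, so the size of its rise there is uncertain.

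The lines were compared directly at each exposure. At 6 h, 192 long genes were lower in ZMYND8 than in GFP cells (30.9%, against 26.6% of all genes tested) and 221 were higher (35.6%, against 28.9%), with a median of 0.05. At 48 h, 246 were lower (39.6%, against 31.6%) and 175 higher (28.2%, against 28.4%), with a median of −0.12. Without doxorubicin, 99 lay at a log2 difference of −1 or lower (13.4% of all genes) and 41 at 1 or higher (9.61% of all), with a median of −0.13 and no test. Of the shorter genes with the same count minimum, 32.7% were lower and 33.5% higher at 6 h and 38.3% and 31.3% at 48 h. Without doxorubicin, 11.1% of them lay at −1 or lower and 3.7% at 1 or higher. Counts near these shares are not a result about long genes.

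The change from 6 h to 48 h was itself compared between the lines. It was lower in ZMYND8 than in GFP cells for 131 long genes (21.1%, against 16.3% of all genes tested) and higher for 63 (10.1%, against 10.4%). Of the shorter genes with the same count minimum, 21.4% were lower and 13.1% higher, so the count is not a result about long genes. The 3 largest differences were in PTPRK, a receptor tyrosine phosphatase (6.08 ± 0.692, adjusted p = 1.9e-07), NTM, an adhesion molecule of the IgLON family (5.51 ± 1.54, adjusted p = 0.0093) and ADAMTS17, a secreted protease (2.54 ± 0.48, adjusted p = 0.00021). PTPRK was at 5.93 and 10.2 at 6 h and 0.266 and 0.337 CPM at 48 h in GFP cells, and at 1.03 and 1.21 and 3.38 and 2.42 CPM in ZMYND8 cells, so it fell in GFP cells (−4.71 ± 0.504, adjusted p = 6.5e-09) and rose in ZMYND8 cells (1.37 ± 0.452, adjusted p = 0.011). The rise was not called without replicate 1 of the 6 h (1.25) or 48 h (1.10) ZMYND8 libraries. Its untreated ZMYND8 libraries, at 4.47 and 0.788 CPM, overlapped those of 48 h. NTM was at 7.87 and 6.91 at 6 h and 2.44 and 2.4 CPM at 48 h in GFP cells, but its 4 ZMYND8 libraries at these times held 0 to 2 counts, at or under a floor of 3 counts, and the call was lost without replicate 1 of the 6 h ZMYND8 libraries (5.52). ADAMTS17 was at 5.77 and 4.92, then 3.42 and 2.82 in GFP cells, and 0.296 and 0.21, then 0.935 and 0.808 CPM in ZMYND8 cells.

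In the transient system the long genes were also mostly lower at 48 h, but few were called in the fit without a replicate block. Of 555 long genes tested there, 38 were called lower (6.85%, against 2.15% of all 15697 genes tested) and 4 higher (0.721%, against 2.98%), with a median of −0.27 against 0 over all genes. Without replicate 2 of empty vector with doxorubicin, the deepest library, 0 of 564 tested were called lower and 0 higher by edgeR, with 72 lower and 34 higher at an unadjusted p of at most 0.05, and the median was −0.14. Without replicate 2 of control, 22 were called lower. Leaving out any 1 of the 6 libraries brought the count called higher to at most 2. DESeq2 on all libraries called 11% lower and 0.36% higher. With the replicate number as a block, 107 were lower and 19 higher (19.3% and 3.42%). The share of all genes called with this block is not given here. With total counts, 20 were lower and 7 higher. The medians by class of span were −0.11 in genes under 10 kb, −0.23 in 430 genes of 250 to 500 kb, −0.44 in 111 genes of 500 kb to 1 Mb and −0.57 in 14 genes of 1 Mb or more. In the libraries labelled ZMYND8 plus doxorubicin, which share the control, 65 were called lower (2.97% of all genes tested) and 3 higher (3.85% of all), with a median of −0.36. With the replicate number as a block, 146 were lower and 17 higher, and DESeq2 called 98 lower. Without replicate 1 of the libraries labelled ZMYND8 plus doxorubicin 3 were called lower, without their replicate 2 14 were, and without replicate 2 of control 37 were, with medians of −0.41, −0.35 and −0.26. Leaving out replicate 2 of both doxorubicin conditions gave 39 lower. These alternatives were chosen after seeing the data.

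Of the 292 genes called lower at 6 h in ZMYND8 cells, 270 were tested in the transient system, with a median of −0.37, 20 called lower and 2 higher. Of the 278 called neither way, 236 were tested, with a median of −0.16, 18 called lower and 1 higher. Both counts lower lie near the 6.85% of all long genes tested there (2.15% of all genes tested). They are not a result about the 6 h call. EDIL3 stood at 188 and 320 CPM in control and 72.9 and 58.3 with doxorubicin (−1.96 ± 0.294, adjusted p = 0.0077). NEGR1 stood at 9.35 and 8.53 against 1.91 and 1.64 (−2.36 ± 0.388, adjusted p = 0.0094), and SORBS2 at 26.5 and 36.4 against 10.4 and 8.88 CPM (−1.72 ± 0.284, adjusted p = 0.0097). Control and doxorubicin libraries did not overlap for these 3 genes. None of the 3 was called without replicate 2 of the doxorubicin libraries (−1.80, −2.21 and −1.59). TP63, at 1.34 and 2.78 against 4.86 and 1.64 CPM, and LAMA2, at 1.34 and 0.696 against 1.91 and 2.59 CPM, were not called (adjusted p = 0.69 and 0.25).

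The limits of the rule separate genes of like size. DNAH12 (250.6 kb) and MCF2L2 (250.7 kb) were just inside the limit on span, and CWC27 (249.8 kb) and ERCC6L2 (249.9 kb) just outside. On counts in the 2 untreated GFP libraries, ENSG00000258077 (23 and 20) and SYT1 (20 and 25) were just inside, and DGKI (26 and 19) and MACROD2 (24 and 19), which spans 2058 kb, just outside.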

How the data were processed

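RNA-seq counts per gene were analysed as deposited. Per the labels, the authors trimmed the reads with Trim Galore, aligned them to hg38 with HISAT2 and counted exon reads per gene with featureCounts 1.6.4. The methods of the study name TopHat instead, and the step that applies to the files is not given in the sources used here. The count headers hold exon coordinates of GENCODE 31, from which span, exon length and overlaps were computed. Symbols came from a table of gene names, and gene types from GENCODE 44. A read pair shared by 2 genes on 1 strand is not assigned, which lowers the counts of overlapping genes.

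Genes with too few counts were removed by filterByExpr, leaving 18801 genes in the inducible table and 15697 in the transient one. edgeR 4.0.16 in R 4.3.3 was used with TMM factors, 1 mean per condition and the quasi-likelihood test, with all 12 inducible or all 6 transient libraries in 1 fit. The p values were adjusted after Benjamini and Hochberg across every gene in the fit. The code was tested on simulated data. The untreated GFP libraries chose the genes, so comparisons with them have no test. Libraries are labelled biological replicates, and the p values measure only the spread between them. Whether replicate numbers pair the transient libraries was checked by the correlation of their deviations from the group means, which was 0.194, 0.438 and 0.441. The numbers were taken to pair them, and the blocked count is given beside that result. Alternatives were DESeq2 1.42.0, other scalings, filters, limits of span and count, the fold limit of the study and each library left out in turn.

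The genes, gene lists and tests were chosen with earlier results of these data known. Genes were named as the 10 largest falls and rises at 6 h and at 48 h in ZMYND8 cells (called, with a symbol, a mean log2 CPM not under 1 and libraries that did not overlap), the 10 longest, up to 4 examples per list with the largest change at 6 h, the 5 largest rises and falls from 6 h to 48 h in both lines, the 3 largest differences between lines, and the genes next to the limits of the rule. Some genes that this rule names are not reported here.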

Additional observations from a re-analysis of the deposited data

Results flagged for a closer look

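The change from 6 h to 48 h differed between the lines, by the test of the difference itself, for 131 long genes that were lower in ZMYND8 than in GFP cells and 63 that were higher. These were 21.1% and 10.1% of the long genes, where all genes tested gave 16.3% and 10.4% and the shorter genes with the same count minimum 21.4% and 13.1%, so the counts are not a result about long genes. Among the named genes that moved most in both lines, TP63 differed by −1.87, SORCS2 by −0.49, PTPRG by 0.43 and EDIL3 by 0.21 on the log2 scale (adjusted p = 0.025, 0.002, 0.0002 and 0.013, edgeR quasi-likelihood test). TP63 rose and the other 3 genes fell in both lines, so these are differences in size and not in direction. The TP63 call was lost without GFP replicate 1 at 6 h (−1.28), GFP replicate 1 at 48 h (−1.66) or ZMYND8 replicate 1 at 6 h (−1.78), and the difference was −2.84 without GFP replicate 2 at 6 h. The EDIL3 call was lost without replicate 2 at 48 h of either line (0.19 in both cases). The largest differences were those of PTPRK (6.08), NTM (5.51) and ADAMTS17 (2.54), and PTPRK and ADAMTS17 fell in GFP and rose in ZMYND8 cells. NTM rests on ZMYND8 libraries with 0 to 2 counts.

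In the transient libraries labelled ZMYND8 plus doxorubicin, 65 of 555 long genes were called lower and 3 higher than in control. With the replicate number as a block these counts were 146 and 17, and without replicate 1 of the libraries labelled ZMYND8 plus doxorubicin 3 were lower. The control libraries are shared with the comparison of empty vector with doxorubicin. The ZMYND8 level of the libraries labelled ZMYND8 plus doxorubicin goes against that label.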

How the results depend on the processing

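The medians at 6 h and 48 h in ZMYND8 cells were below 0 under every setting tried, from −0.36 to −0.20 and from −0.83 to −0.45. All values that follow are percents of long genes called lower and higher unless only one is named. With the fold limit of the study and an unadjusted p, the percents were 1.61 and 0.161 at 6 h and 10.3 and 3.22 at 48 h in ZMYND8 cells, 4.99 and 3.54 for 48 h against 6 h in GFP and 5.15 and 4.51 in ZMYND8 cells, 8.37 and 3.22 between lines at 6 h, 5.31 and 1.77 at 48 h, 0.322 and 1.93 for the difference of changes, and 10.8 and 3.24 in the transient system. With total counts, higher calls were 5.31 at 6 h and 30.3 for 48 h against 6 h in ZMYND8 cells, and the transient percents were 3.6 and 1.26. At a span limit of 150 kb higher calls were 12.7 at 6 h and 1.22 in the transient system, and at 500 kb lower transient calls were 13.6. With at least 100 counts higher calls were 7.04 at 48 h and 0.431 in the transient system. The transient percents were 12.1 and 1.77 with no filter, 11 and 0.36 with DESeq2, 19.3 and 3.42 with the replicate block, 0.365 higher with only the libraries compared, and 1.25 and 0.357 without both near-identical libraries, an alternative chosen after seeing the data. With total counts RUNX1 reversed to 0.0136 at 48 h and FAM107B to 0.0957 for 48 h against 6 h in ZMYND8 cells. The causes of these shifts were not tested.

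Leaving out 1 library gave 40.6 to 47.2 lower and 6.44 to 8.37 higher at 6 h in ZMYND8 cells, 63.1 to 66.3 lower and 9.66 to 11.8 higher at 48 h, 46.7 to 51.9 lower and 18.7 to 23.8 higher for 48 h against 6 h in GFP, 52.2 to 55.6 lower and 14.7 to 18.7 higher for 48 h against 6 h in ZMYND8 cells, 28 to 31.1 lower and 30.8 to 35.6 higher between lines at 6 h, 33.7 to 40.1 lower and 22.5 to 28.3 higher between lines at 48 h, 17.1 to 21.7 lower and 8.05 to 10.8 higher for the difference of changes and 0 to 5.84 lower and 0 to 0.355 higher in the transient system. In the inducible system replicate numbers share only a number (correlations −0.147 to 0.050 over 15 pairs), and with the replicate block the percents at 6 h in ZMYND8 cells were 46.9 and 8.05 and no count moved by over 1.5 times. Over 301 calls of 57 named genes, a call was lost in 75 cases under other settings and in 174 cases when 1 library was left out, each call counted once per setting. With 2 libraries per condition, small changes of low genes were not detectable.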
